A study of Mus musculus with 24 samples.

Results

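Cation-chloride cotransporters move chloride across cell membranes together with sodium, potassium or both, and so set cell chloride, cell volume and salt transport across epithelia. The family has members that carry chloride inwards with sodium (Slc12a1, Slc12a2 and the thiazide-sensitive Slc12a3), members that carry potassium and chloride outwards (Slc12a4, Slc12a5 and Slc12a7 among them), and more distant members whose cargo is less settled (Slc12a8 and Slc12a9). In the kidney, *Slc12a1* of the thick ascending limb is the target of loop diuretics. WNK kinases act through the kinases SPAK and OSR1 to switch the inward carriers on and the outward carriers off.

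Members were the 7 genes *Slc12a1*, *Slc12a2*, *Slc12a4*, *Slc12a5*, *Slc12a7*, *Slc12a8* and *Slc12a9*, out of 18782 genes with a probe set that carries their symbol alone. Each of the 7 had 1 such probe set, and all 7 were measured on every array. Kidneys of 12-week-old Schlager mice were measured on Affymetrix Mouse Gene 1.0 ST arrays, 1 array for each of 24 mice. Hypertensive BPH/2J mice and normotensive BPN/3J mice were each represented by 6 males and 6 females, and the labels name no treatment. The 2 strains were bred apart for high and normal blood pressure, so a strain difference holds every inherited difference between them, and the methods state that blood pressure was not taken in the mice used for arrays. Each value is a log2 RMA expression level, so a difference of 1 is a doubling. Levels of different genes come from different probes and were not compared with each other.

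The arrays were alike in their bulk values and unlike in their levels of genes of other organs. Array medians lay between 6.89 and 6.93 in males and between 6.92 and 6.97 in females, and arrays of 1 group correlated at r = 0.981 to 0.997 across probe sets. Among BPN/3J females, arrays 2 and 5 had a mean over 11 hepatocyte genes of 12.07 and 12.31, and the other 4 had 6.87 to 7.64. That mean was 7.11 to 10.29 in the other groups. It also holds strain and sex differences of single genes. *Ttr* averaged 8.59 in BPN/3J males and 11.75 in BPH/2J males (SD 0.95 and 0.17). *Cyp2e1* averaged 13.67 in BPH/2J males and 11.58 in BPH/2J females (SD 0.05 and 0.29). A fit with this mean as a covariate shares that limit. The mean of 8 adrenal cortex genes went from 5.69 to 10.39 over the 24 arrays. The labelled tissue was borne out by the kidney markers: the mean of 8 proximal tubule genes was 12.59 to 12.78 and that of 7 thick ascending limb genes 11.23 to 11.67.

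The largest strain difference of the family was in *Slc12a2*, and it was found in males and not detected in females. *Slc12a2* encodes NKCC1, the widely expressed sodium-potassium-chloride carrier of basolateral membranes. In BPN/3J males it lay between 9.83 and 9.91 with a median of 9.90. In BPH/2J males it lay between 10.50 and 10.66 with a median of 10.60. In BPN/3J females it lay between 9.95 and 10.10 (median 10.05), and in BPH/2J females between 9.94 and 10.05 (median 9.99). Every BPH/2J male was thus above every mouse of the other 3 groups, while the 2 female groups overlapped over most of their range. The strain difference in males was 0.71 on the log2 scale (standard error 0.0367, n = 6 per strain), a 1.64-fold rise, with a Benjamini-Hochberg adjusted p of 1.19e-08 from limma. In females it was −0.04 (standard error 0.0369, 95% interval −0.12 to 0.04, adjusted p = 0.521). The difference between these strain effects was itself tested as the strain-by-sex interaction on all 24 arrays, and it was −0.76 (standard error 0.0471, limma adjusted p = 2.55e-10). Only 6 of the 28853 probe sets had a smaller p for that interaction. Of all probe sets, 1.76% passed the interaction test (0.918% upwards and 0.842% downwards), and *Slc12a2* was the 1 member of 7 that did.

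**Figure D1:**
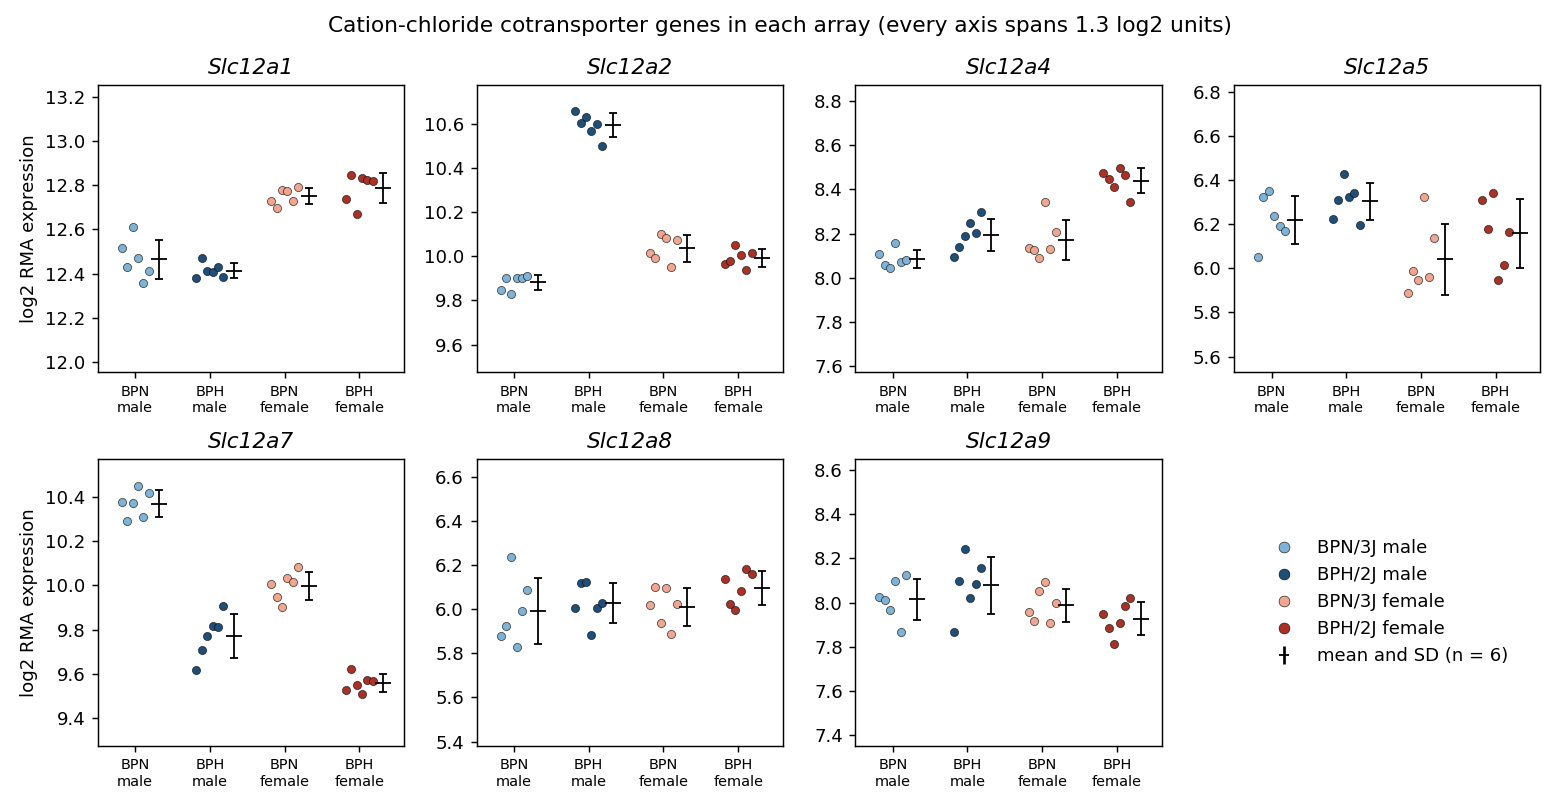
Log2 RMA expression (vertical axes) of the 7 cotransporter genes in each of the 4 strain-by-sex groups (horizontal axes). Points are single mice, and bars give the mean and SD over the 6 mice of a group. The *Slc12a2* values of BPH/2J males, 10.50 to 10.66, lie above all others, and *Slc12a7* is lower in BPH/2J than in BPN/3J in both sexes.

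*Slc12a7* was lower in BPH/2J kidneys of both sexes. It encodes KCC4, a potassium-chloride carrier of basolateral tubule membranes, and mice that lack it have renal tubular acidosis and deafness. In males it lay between 10.29 and 10.45 (median 10.37) in BPN/3J and between 9.62 and 9.91 (median 9.79) in BPH/2J. In females it lay between 9.90 and 10.08 (median 10.01) in BPN/3J and between 9.51 and 9.62 (median 9.56) in BPH/2J. The strains did not overlap in either sex. The difference was −0.60 in males (standard error 0.0504, limma adjusted p = 1.75e-06), which is 1.52-fold lower. It was −0.44 in females (standard error 0.038, limma adjusted p = 3.71e-06), which is 1.36-fold lower. The interaction was 0.16 (95% interval 0.03 to 0.29, limma adjusted p = 0.235), so a smaller fall in females was not shown. Both falls and the male rise of *Slc12a2* also passed a Bonferroni-adjusted p under 0.05, the threshold named in the methods (*Slc12a7* at 0.000615 in males and 0.0012 in females, *Slc12a2* at 1.41e-06 in males, all from limma).

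Sequences around an annotated start are shown as context for the sex and strain differences. They are of *Slc12a7*, the member that differed by strain in both sexes, and of *Slc12a1*, the member described next. Both come from RefSeq on the GRCm38.p6 build, plus strand, and hold 250 bases before and 50 after an annotated start. The window of *Slc12a7* is chr13:73763410-73763709, the upstream of 2 overlapping windows for this gene. It lies inside the gene, annotated from 73733052 to 73816754, so it surrounds an internal start and not the outermost one. The *Slc12a1* window, chr2:125152350-125152649, covers the annotated gene start at 125152510. It is built on a start further inside the gene, so fewer than 250 of its bases lie before the gene start. Capitals mark matches, on both strands, to the nuclear receptor hexamer AGGTCA, the androgen and glucocorticoid receptor hexamer AGAACA, the E-box CACGTG and the TATA box TATAAA.
Slc12a7: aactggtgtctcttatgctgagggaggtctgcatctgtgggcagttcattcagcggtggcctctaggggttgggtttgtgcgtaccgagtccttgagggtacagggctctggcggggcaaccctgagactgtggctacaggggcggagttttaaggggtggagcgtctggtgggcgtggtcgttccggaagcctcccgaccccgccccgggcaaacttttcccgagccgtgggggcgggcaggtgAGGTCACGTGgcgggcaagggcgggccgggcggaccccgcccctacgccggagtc
Slc12a1: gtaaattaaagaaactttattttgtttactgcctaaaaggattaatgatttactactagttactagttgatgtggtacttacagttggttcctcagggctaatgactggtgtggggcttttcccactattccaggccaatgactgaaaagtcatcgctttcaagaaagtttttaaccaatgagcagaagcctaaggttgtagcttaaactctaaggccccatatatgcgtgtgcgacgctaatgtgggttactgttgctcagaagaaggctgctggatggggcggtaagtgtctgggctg
The *Slc12a7* window held AGGTCA and CACGTG, which overlap each other at this internal start. The *Slc12a1* window held none of the 4 motifs. Of 32851 windows of 300 bases for all genes, 16.3% held AGGTCA, 19% held AGAACA, 7.15% held CACGTG and 13.6% held TATAAA. These are matches of letters and were not tested for any function.

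*Slc12a1*, which encodes NKCC2, the apical carrier that takes up salt in the thick ascending limb, was nearly level between the strains and higher in females. Its values were 12.36 to 12.61 (median 12.45) in BPN/3J males and 12.38 to 12.47 (median 12.41) in BPH/2J males. They were 12.70 to 12.79 (median 12.75) in BPN/3J females and 12.67 to 12.85 (median 12.82) in BPH/2J females. The strains overlapped in both sexes, and no female of either strain was as low as any male. The strain difference was −0.05 in males (95% interval −0.15 to 0.04, limma adjusted p = 0.516) and 0.04 in females (95% interval −0.04 to 0.12, limma adjusted p = 0.59). These intervals bound a strain difference at well under 1.5-fold in either direction. The sex difference, female minus male, was 0.28 in BPN/3J (standard error 0.0438, limma adjusted p = 0.000276) and 0.38 in BPH/2J (standard error 0.0383, limma adjusted p = 7.89e-06), or 1.22-fold and 1.3-fold.

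Most markers of the same tubule segment were higher in females, and so were those of several other kidney cells, though not of all. Of 7 thick ascending limb markers measured, 6 were higher and 1 lower in females of each strain, where 14.4% of all probe sets were higher and 14.8% lower in BPN/3J and 15.6% and 13.4% in BPH/2J. Their median difference was 0.29 in BPN/3J and 0.29 in BPH/2J, against −0.02 and −0.003 over all probe sets. The median was 0.31 and 0.26 for 6 distal convoluted tubule markers, 0.28 and 0.32 for 8 intercalated cell markers, 0.42 and 0.37 for 4 podocyte markers and 0.34 and 0.32 for 6 smooth muscle markers, so the direction was not particular to the segment. Of 8 proximal tubule markers, 5 were higher and 2 lower in females of BPN/3J, and 4 and 3 in BPH/2J. The median was 0.14 and 0.10 for 7 endothelial markers and −0.07 and −0.03 for 7 macrophage and leukocyte markers. The mean of the 7 thick ascending limb genes was 11.23 to 11.43 in males and 11.46 to 11.67 in females, so males and females did not overlap. *Kcnj1*, the apical potassium channel that recycles potassium for the carrier, differed by 0.29 (standard error 0.0394) in BPN/3J and 0.29 (0.0419) in BPH/2J. Within groups, the deviations of *Slc12a1* from the group mean correlated with those of the 7-gene mean at r = 0.596 over 24 arrays, which share their normalisation. In whole-kidney RNA, more cells of a segment and more RNA per cell cannot be told apart, and the part of the segment's markers in the *Slc12a1* difference was not tested.

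*Slc12a4* encodes KCC1, a potassium-chloride carrier found in most cells and known from red blood cells. Its values were 8.04 to 8.16 (median 8.08) in BPN/3J males and 8.10 to 8.30 (median 8.20) in BPH/2J males. They were 8.09 to 8.34 (median 8.13) in BPN/3J females and 8.34 to 8.50 (median 8.46) in BPH/2J females. The BPH/2J females stood highest, and 1 BPN/3J female reached the lowest of them. The strain difference was 0.27 in females (standard error 0.047, limma adjusted p = 0.00156), a 1.2-fold rise. In males it was 0.11 (95% interval 0.02 to 0.20, limma adjusted p = 0.0992) and did not pass. The interaction was 0.16 (standard error 0.0596, limma adjusted p = 0.228), so the strain effects were not shown to differ between the sexes. When the 40% of probe sets with the lowest mean were left out, the male difference passed as well (limma adjusted p = 0.0468). Among cell type lists, 6 of 6 smooth muscle, 4 of 4 podocyte and 6 of 8 intercalated cell markers were higher in BPH/2J females, beside 8.01% of all probe sets. In BPH/2J males 5 of 6, 3 of 4 and 4 of 8 were, beside 7.48%, and their part in the *Slc12a4* difference was not tested. Of the erythroid list, 2 of 7 genes were measured. In BPH/2J females *Slc4a1*, which is also in the intercalated cell list, was higher. *Alas2* was lower, with a mean of 7.01 against 7.88 in BPN/3J females.

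The remaining 3 members passed no test in any of the 5 comparisons. *Slc12a9*, which encodes a member with no settled cargo, had strain differences of 0.06 in males (95% interval −0.07 to 0.20) and −0.06 in females (−0.16 to 0.04), with values from 7.81 to 8.24 over the 24 arrays. *Slc12a5*, which encodes the neuronal potassium-chloride carrier KCC2, ranged from 5.89 to 6.43, with strain differences of 0.08 (95% interval −0.04 to 0.20) and 0.12 (−0.07 to 0.30). *Slc12a8* ranged from 5.83 to 6.23, with strain differences of 0.04 (95% interval −0.11 to 0.18) and 0.09 (−0.02 to 0.19). For each of these 3 genes the groups overlapped in all 4 pairwise comparisons. The means of *Slc12a5* and *Slc12a8*, 6.18 and 6.03, were below 6.21, the 40th percentile of all probe sets. Of 7 neuronal markers, none passed in males and 2 were higher in BPH/2J females.

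In all, 1 of 7 members was higher and 1 lower in BPH/2J males (*Slc12a2* and *Slc12a7*), against 7.48% and 7.7% of all probe sets. In BPH/2J females 1 was higher and 1 lower (*Slc12a4* and *Slc12a7*), against 8.01% and 6.48%. The shares without direction were 15.2% in males and 14.5% in females, and with 7 members a count of 2 is not read as more than those shares. At the Bonferroni threshold, 2 members passed in males and 1 in females, against 2.56% and 2.36% of all probe sets. The strains did not overlap for 2 members in males (9.65% of all probe sets) and for 1 in females (9.34%). The median difference of the 7 members was 0.06 in males and 0.04 in females, against 0.00 and 0.02 over all probe sets.

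**Figure D2:**
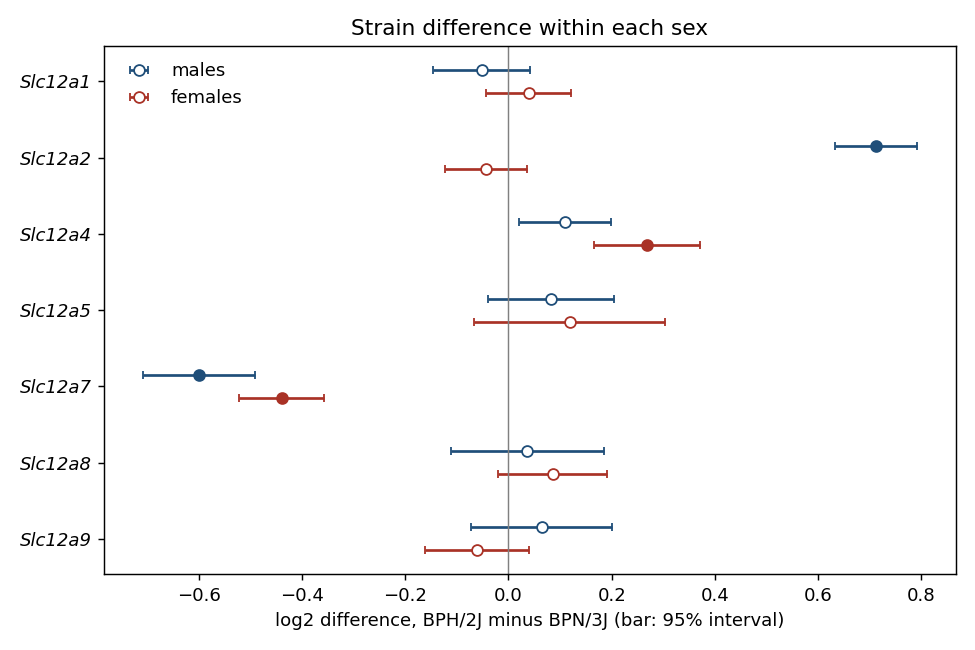
Log2 difference between BPH/2J and BPN/3J (horizontal axis) for each cotransporter gene (vertical axis), with its 95% interval, in males and in females (n = 6 per strain). Filled points passed a Benjamini-Hochberg adjusted p under 0.05. *Slc12a2* stands at 0.71 in males and −0.04 in females, and *Slc12a7* at −0.60 and −0.44.

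The sex comparisons use the same arrays as the strain comparisons, so they are not independent of them. *Slc12a2* had opposite sex differences in the strains. In BPN/3J it was 0.15 higher in females (standard error 0.037, 1.11-fold, limma adjusted p = 0.00638) with no overlap, though with all arrays shifted to 1 median the difference was 0.12 and did not pass (limma adjusted p = 0.0506). In BPH/2J the difference was −0.60 (1.52-fold lower in females, standard error 0.0363, limma adjusted p = 6.35e-08), again with no overlap. *Slc12a7* was lower in females of both strains, with a difference of −0.37 in BPN/3J (standard error 0.0421, limma adjusted p = 1.98e-05) and −0.21 in BPH/2J (standard error 0.0471, limma adjusted p = 0.00376). By mean, *Slc12a7* ran from BPN/3J males through BPN/3J females and BPH/2J males to BPH/2J females. The ranges of the last 3 groups in that order touched at their ends, 9.90 against 9.91 and 9.62 against 9.62, and the BPN/3J males stood clear of the rest. *Slc12a4* was higher in females of BPH/2J, by 0.24 (standard error 0.0427, limma adjusted p = 0.000718), and by 0.09 in BPN/3J (95% interval −0.01 to 0.18, limma adjusted p = 0.185).

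With *Slc12a1*, 3 of 7 members passed between the sexes in BPN/3J and 4 of 7 in BPH/2J, against 29.2% and 28.9% of all probe sets, and these counts are not read as more than those shares. In BPN/3J 2 were higher and 1 lower in females (14.4% and 14.8% of all probe sets), and in BPH/2J 2 were higher and 2 lower (15.6% and 13.4%). At the Bonferroni threshold 1 and 2 members passed, against 4.74% and 4.72%. The sexes did not overlap for 3 members in each strain, against 17.6% and 18.2% of all probe sets. Of all calls, 49.3% in BPN/3J and 53.8% in BPH/2J were higher in females, and 36.1% and 39% with all arrays shifted to 1 median. The difference of *Slc12a9* was −0.15 in BPH/2J and did not pass (limma adjusted p = 0.0752), but passed in 5 of 23 other settings. These were quantile normalisation (limma adjusted p = 0.0317), arrays shifted to 1 median (0.0257), dim probe sets left out (0.0418), all 24 arrays in 1 fit (0.0395) and BPH/2J male array 1 left out (0.013). That of *Slc12a5* was −0.18 in BPN/3J (limma adjusted p = 0.093) and passed with all arrays shifted to 1 median (−0.22, limma adjusted p = 0.0426) and when BPN/3J female array 4 was left out (−0.24, limma adjusted p = 0.0135).

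**Figure D3:**
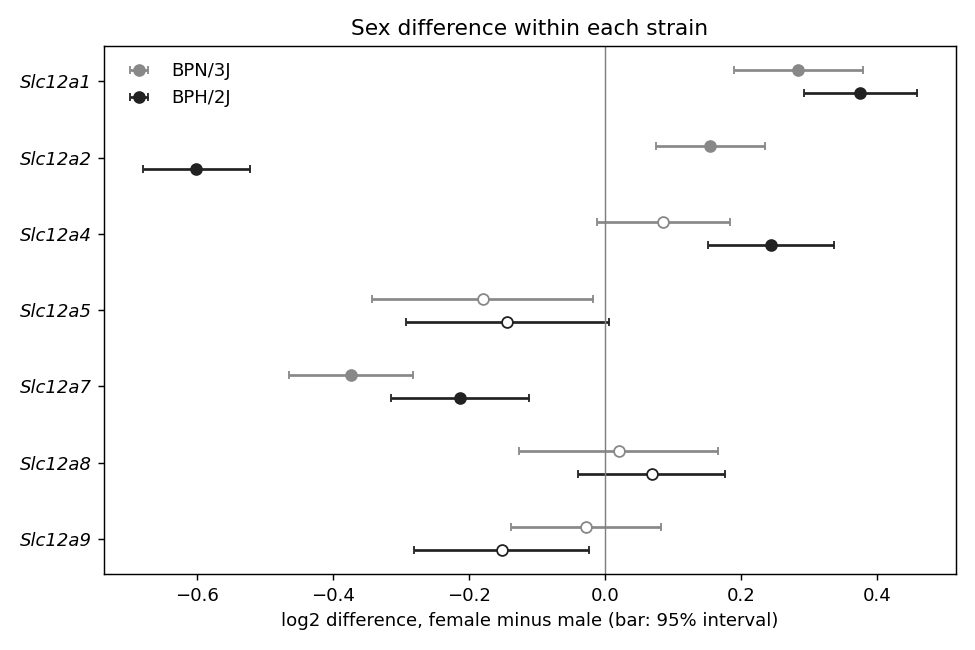
Log2 difference between females and males (horizontal axis) for each cotransporter gene (vertical axis), with its 95% interval, in BPN/3J and in BPH/2J (n = 6 per sex). Filled points passed a Benjamini-Hochberg adjusted p under 0.05. *Slc12a2* stands at 0.15 in BPN/3J and −0.60 in BPH/2J, and *Slc12a1* is higher in females of both strains.

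Of the regulators of these carriers, *Wnk2* was also higher in BPH/2J males than in the other 3 groups. *Wnk2* encodes a WNK kinase that raises the activity of NKCC1 and lowers that of the potassium-chloride carriers. It lay between 6.77 and 7.12 (median 6.93) in BPN/3J males and between 7.43 and 7.59 (median 7.57) in BPH/2J males. In females it lay between 6.59 and 6.97 (median 6.76) in BPN/3J and between 6.75 and 7.06 (median 6.84) in BPH/2J. As with *Slc12a2*, the BPH/2J males stood above all other mice. The strain difference was 0.60 in males (standard error 0.0592, limma adjusted p = 8.61e-06) and 0.08 in females (95% interval −0.08 to 0.25, limma adjusted p = 0.553), with an interaction of −0.52 (standard error 0.0985, limma adjusted p = 0.00399). *Wnk2* was the 1 gene of 50 in the 4 pathway lists that passed the interaction test, against 1.76% of all probe sets. This count is not read as more than that share. Of 12 regulators, *Wnk2* was the 1 higher and 2 were lower in BPH/2J males (7.48% and 7.7% of all probe sets), where *Cab39* and *Cul3*, an adaptor of SPAK and the ubiquitin ligase scaffold that removes WNKs, differed by −0.16 (standard error 0.0359) and −0.17 (0.039). In females none was higher and 1 was lower (8.01% and 6.48% of all probe sets), *Wnk3* at −0.52 (standard error 0.115, limma adjusted p = 0.00788). Its female ranges overlapped, 6.34 to 7.01 in BPN/3J and 5.92 to 6.50 in BPH/2J. In males it differed by −0.23 and did not pass (limma adjusted p = 0.101). Its group means, 5.94 to 6.64, lay around 6.21, the 40th percentile of all probe sets.

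The sex differences among the regulators ran both ways. In BPN/3J 5 of the 12 were higher and 3 lower in females, and in BPH/2J 4 were higher and 3 lower, beside 14.4% and 14.8% of all probe sets in BPN/3J and 15.6% and 13.4% in BPH/2J. *Stk39*, which encodes SPAK, the kinase that phosphorylates *Slc12a1* and *Slc12a2* proteins, was higher in females by 0.29 (standard error 0.05) in BPN/3J and 0.34 (0.0405) in BPH/2J. *Klhl2*, an adaptor that brings WNKs to degradation, was lower by −0.44 (0.0543) and −0.43 (0.0375). *Wnk2* was lower in BPH/2J females by −0.69 (standard error 0.0524, limma adjusted p = 5.55e-07).

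Of the 13 genes that work beside *Slc12a1* in the thick ascending limb, BPH/2J males had 3 higher and 1 lower, and BPH/2J females 4 higher and none lower. The shares of all probe sets, here and for the lists that follow, were 7.48% higher and 7.7% lower in males and 8.01% and 6.48% in females. *Cldn16*, the tight junction protein for magnesium and calcium, rose by 0.52 in males (standard error 0.0577) and 0.59 in females (0.0574), and *Casr*, the calcium-sensing receptor, by 0.22 (0.0418) and 0.21 (0.044). *Cldn19*, the partner of *Cldn16*, differed by −0.30 in males (0.0518). In females it differed by −0.14 (0.0461) with no overlap of the strains, and did not pass (limma adjusted p = 0.0568). Of 11 genes of cell volume and osmolytes, 2 were higher and 3 lower in males and 3 higher and 1 lower in females. *Slc5a3*, the inositol carrier, rose by 0.41 (standard error 0.0677) and 0.32 (0.0476), and *Lrrc8d*, a subunit of the volume-regulated anion channel, by 0.36 (0.0481) and 0.26 (0.0379). *Lrrc8c*, another subunit, differed by −0.29 (0.0722) and −0.30 (0.0464). *Slc6a12* differed by −0.37 in males (0.105) and by −0.39 in females (0.145), where it did not pass (limma adjusted p = 0.0973).

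Of 14 chloride and bicarbonate exchangers and channels, males of BPH/2J had 4 higher and 1 lower (7.48% and 7.7% of all probe sets), and females 6 higher and 2 lower (8.01% and 6.48%). *Cftr*, the cAMP-regulated chloride channel, rose by 0.53 in males (standard error 0.107) and 0.44 in females (0.0745). *Ano1*, a calcium-activated chloride channel, rose by 0.31 (0.0741) and 0.45 (0.0609), and *Slc26a7* by 0.38 (0.0731) and 0.24 (0.064). The exchanger gene *Clcn4* differed by −0.15 (0.0467) and −0.25 (0.0461). The median strain difference of the 4 lists was −0.000667 to 0.04 in males and 0.01 to 0.04 in females, against 0.00 and 0.02 over all probe sets. 

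**Figure D4:**
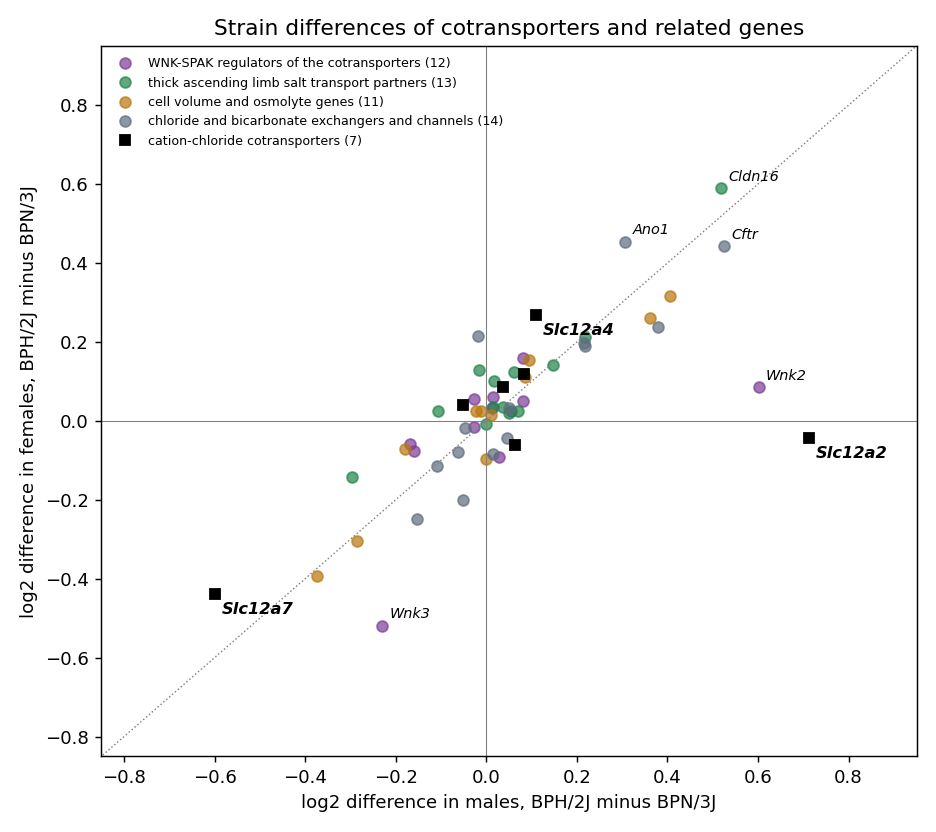
Strain difference (log2, BPH/2J minus BPN/3J) of males (horizontal axis) against females (vertical axis) for the 7 cotransporter genes (squares) and 50 related genes (circles, coloured by list). The dotted line marks equal differences in both sexes. *Slc12a2* (0.71 and −0.04) and *Wnk2* (0.60 and 0.08) lie far to the right of it, and *Slc12a7* (−0.60 and −0.44) near it.

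Of 94 marker genes of 14 cell types, 4 passed the interaction test, beside 1.76% of all probe sets, namely *Csf1r*, *Alas2*, *Cyp2e1* and *Ucp1*. *Csf1r* is of the macrophage and leukocyte list, *Alas2* of the erythroid, *Cyp2e1* of the hepatocyte and *Ucp1* of the adipocyte list. *Cyp2e1* lay between 13.54 and 13.65 in BPN/3J males, whose hepatocyte mean went from 7.24 to 9.52. Its cell of origin was not tested. Intercalated cells are a known site of *Slc12a7*. Of their 8 markers, 4 were higher and none lower in BPH/2J males, beside 7.48% and 7.7% of all probe sets. In BPH/2J females 6 were higher and none lower, beside 8.01% and 6.48%. The mean of those 8 genes was 9.63 to 9.80 in BPN/3J males and 9.85 to 10.09 in BPH/2J males, and 9.96 to 10.09 and 10.23 to 10.42 in the females of the same strains. This list mean was higher in BPH/2J with no overlap in either sex, while *Slc12a7* was lower in both, and its part in the *Slc12a2* and *Slc12a7* differences was not tested. The genes of the list were unlike in this. *Rhbg* averaged 10.08 in BPN/3J and 10.82 in BPH/2J males, and 10.52 and 11.32 in females. *Rhcg* averaged 10.82 and 10.81 in males, and 11.10 and 11.11 in females. With the hepatocyte and adrenal cortex means as covariates, *Slc12a2* and *Slc12a7* were again the members that passed in males and *Slc12a4* and *Slc12a7* those in females, as they were in females without the BPN/3J arrays 2 and 5.

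The members varied little within groups. The SD of a member within a group was 0.03 to 0.16, with the highest in *Slc12a5* in females. After group means were removed, *Slc12a4* and *Slc12a7* varied together (r = 0.614 over 24 arrays), and both varied with the thiazide-sensitive *Slc12a3* (r = 0.653 and 0.62). *Slc12a2* and *Slc12a7* had r = −0.384. These correlations are over arrays that share 1 normalisation and are given as a description. *Slc12a7* deviated with the mean of 8 proximal tubule genes (r = 0.673), of which 1 was lower and none higher in BPH/2J of each sex. It also did so with that of 6 distal convoluted tubule genes (r = 0.532). Of those, 2 were lower and 1 higher in BPH/2J males, and 3 lower and none higher in females. Of all probe sets, 7.7% were lower and 7.48% higher in males, and 6.48% and 8.01% in females. The genes with the pattern most like *Slc12a2* over the 24 arrays were *Echdc1* (r = 0.918), *Snx31* (0.902) and *Fbln7* (0.899), out of 18775 genes compared. For *Slc12a7* they were *Slc35e1* (0.967), *Hmgcs1* (0.964) and *Mcfd2* (0.963), for *Slc12a1* they were *Slc23a3* (0.969), *Plppr4* (0.967) and *Asph* (0.964), and for *Slc12a4* they were *Ltbp3* (0.95), *Tmem94* (0.928) and *Crim1* (0.926). Of deviations from group means alone, the closest were *Ctps* for *Slc12a2* (0.792), *Cabin1* for *Slc12a7* (0.86), *Tdrd7* for *Slc12a1* (0.772) and *Ptprg* for *Slc12a4* (0.79).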

How the data were processed

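Kidney RNA of 24 mice, 6 in each strain-by-sex group, was hybridised to Affymetrix arrays. The deposited table holds log2 expression values that the authors made with RMA, for 28853 probe sets. The RMA version and the genome build of the array annotation are not given in the sources used here. Groups and array numbers came from the titles. Gene names came from the platform annotation (21159 probe sets with 1 symbol, 1881 with several, 5813 with none), updated through gene identifiers to RefSeq GRCm38.p6. Values were used as deposited, with no filter.

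Strains within a sex and sexes within a strain were compared by limma (version 3.58.1, R version 4.3.3) on 12 arrays, and the interaction on 24. A probe set was called where its p, adjusted over all 28853 by Benjamini-Hochberg, was under 0.05, with Bonferroni as the second threshold. Arrays are of separate mice, so p-values measure the spread between mice. The code was tested on simulated data. The number of arrays limits precision.

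Named genes were all members, markers that a result turned on, and the 3 genes most correlated with *Slc12a1* or a member called between strains. Of the called genes in 4 pathway lists, some with larger differences per direction were named, and not every one. Members and lists were chosen with earlier results of these data known. Lists held 145 measured of 167 entries. Alternatives were the methods' t-test with unequal variances, other thresholds, filters, scalings and variance models, the replicate block, other-organ covariates, and arrays left out. Chromosomal neighbours, 5 measured genes on each side, were added after seeing the data. Figures used Python 3.11.15 and matplotlib 3.10.9.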

Additional observations from a re-analysis of the deposited data

Results flagged for a closer look

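The strain effect on *Slc12a2* differed between the sexes. The interaction, the strain difference in females minus that in males, was −0.76 on the log2 scale (standard error 0.0471, limma adjusted p = 2.55e-10), from a difference of 0.71 in males and −0.04 in females. The same test was made for all 7 members and passed for this 1. Of the 28 sets of 6 values, 1 for each member and group, none held a value set apart from the other 5 by Dixon's test.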

How the results depend on the processing

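Replicate numbers were not taken to pair the arrays. Between same-numbered arrays, 0 of 6 correlations of deviations in the male strain comparison were over 0.1, and 3 or 4 of 6 in the others. They ran from −0.567 (strains in females) to 0.444 (sexes in BPN/3J). The deviations also hold the other-organ differences between arrays, so these correlations cannot decide whether arrays were paired. With the replicate block, limma called the same members as without it: 2 between strains in males, 2 in females, 3 between sexes in BPN/3J, 4 in BPH/2J and 1 for the interaction. Leaving out 1 array at a time gave 2 to 2, 2 to 2, 3 to 4, 4 to 5 and 1 to 1 members. At the Bonferroni threshold 1 member remained between strains in females, 1 between sexes in BPN/3J and 2 in BPH/2J, and with a fold above 1.5 as well 0, 0 and 1. Over all probe sets, calls in the 5 comparisons went from 4381, 4180, 8424, 8349 and 508 to 740, 681, 1367, 1361 and 104 at Bonferroni, and to 720, 655, 1014, 853 and 170 with that fold. Differences that changed sign passed no test: between sexes in BPN/3J, *Slc12a8* was −0.0182 with 1 common median and −0.0121 to 0.0687 with 1 array left out, and *Slc12a9* was 0.0103 without female arrays 2 and 5. The *Slc12a5* interaction was −3e-04 to 0.0922 with 1 array left out. The cause was not tested. Another probe set per gene could not be tried, since each member had 1. The number of arrays, and the low levels of *Slc12a5* and *Slc12a8*, limit what could be detected.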

Other observations

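*Slc12a3*, the family member of the distal convoluted tubule that thiazides block, was lower in BPH/2J males by −0.33 (standard error 0.0557, limma adjusted p = 0.00101) and in BPH/2J females by −0.22 (standard error 0.0455, limma adjusted p = 0.00546).

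Genes beside the members on the chromosome were described after the data were seen, with 5 measured genes on each side in the gene order of GRCm38.p6. Beside *Slc12a2*, 1 of 10 was called between strains in both sexes, *Ctxn3* at −0.72 in males and −0.56 in females. Beside *Slc12a7*, 1 of 10 was called in both sexes, *Slc6a18* at −1.79 in males and −0.61 in females, with an interaction of 1.18 (limma adjusted p = 2.09e-10). Such neighbours were not particular to these members. The same count, of calls in both sexes in 1 direction, was 3 of 10 beside each of *Slc12a1* and *Slc12a8*. It was 1 beside *Slc12a5* and 0 beside *Slc12a4* and *Slc12a9*. The share of all probe sets called in both sexes is not given here. In males alone, 3 of 10 were called beside *Slc12a1*, 4 beside *Slc12a8*, 1 beside *Slc12a2*, *Slc12a5* and *Slc12a7* each, and 0 beside the others. In females alone, 3 were called beside *Slc12a1* and *Slc12a8* each, 4 beside *Slc12a5* and 2 beside *Slc12a9*. Beside *Slc12a2* and *Slc12a7* it was 1 each, and beside *Slc12a4* 0. Of all probe sets, 15.2% were called between strains in males and 14.5% in females.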
